A study of Mus musculus with 7 samples.

Results

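The genes described here are the 9 enzymes Amt, Gldc, Gcsh, Dld, Shmt1, Shmt2, Gnmt, Mthfd1 and Aldh1l1, of 19938 genes measured on Affymetrix Mouse Gene 1.0 ST arrays. They were taken by gene symbol, and each of the 9 had 1 probe set paired with that symbol alone. Amt was chosen by its fall in the miR-709 against Cel-239b values of these same arrays, and the other 8 were taken as its partners in glycine and folate metabolism. For this reason the change of Amt is given as a description, with no test. Primary hepatocytes were isolated from male C57BL/6J mice with collagenase and a Percoll gradient, which removes most other liver cells. Cultured cells received either 1 µg of the mimic miR-709 (4 arrays, replicates A to D) or 1 µg of Cel-239b, a worm miRNA that served as the control (3 arrays, replicates B to D). Total RNA was taken 24 h later. All cells received a transfected small RNA, and no array from untransfected hepatocytes was analysed here. The labels do not say whether the replicates of a treatment came from separate mice or isolations, so each p-value covers the spread among these arrays alone.

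Glycine is broken down in mitochondria by the glycine cleavage system, which is highly active in liver. Gldc (the P protein) removes carbon dioxide from glycine and loads the remaining aminomethyl group onto the lipoic acid arm of Gcsh (the H protein). Amt, aminomethyltransferase (the T protein), releases ammonia from that arm and passes the carbon to tetrahydrofolate, and Dld (the L protein) reoxidises the arm. Loss of Amt or Gldc in humans causes nonketotic hyperglycinemia. The serine hydroxymethyltransferases Shmt1 (cytosol) and Shmt2 (mitochondria) interconvert serine and glycine with the same folate carrier. Gnmt, an abundant liver enzyme, methylates glycine to sarcosine and so uses up S-adenosylmethionine. Mthfd1 interconverts folate-bound carbon units in the cytosol, and Aldh1l1 oxidises formyl-tetrahydrofolate to carbon dioxide.

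Values are log2 signals after RMA, which brings the signals of all arrays to a common distribution before the probes of a probe set are combined. A difference of 1 is a 2-fold change. Treatments were compared with limma, a linear model with moderated variances, and p-values were adjusted over all 19938 genes by the Benjamini-Hochberg method. A gene was called lower or higher at an adjusted p under 0.05. Log2 fold changes are miR-709 minus Cel-239b. Signals are compared between arrays for the same probe set and not between genes, and the number of arrays limits the precision.

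Amt was lower in miR-709-treated hepatocytes on every array. Its log2 signals were 7.02, 6.99, 6.42 and 6.63 on miR-709 replicates A, B, C and D, against 7.81, 7.84 and 8.0 on Cel-239b replicates B, C and D. The treatments did not overlap, and 0.79 log2 units separated the highest miR-709 array from the lowest Cel-239b array. The mean was 6.77 ± 0.29 (SD, n = 4) with miR-709 and 7.88 ± 0.10 (SD, n = 3) with Cel-239b, a log2 fold change of -1.12 (standard error 0.14), or 2.17-fold lower. This was the 29th most negative log2 fold change of the 19938 genes, of which 36 were lower by over 2-fold. Set against the Cel-239b mean, Amt was lower by 1.82-fold, 1.86-fold, 2.76-fold and 2.38-fold on replicates A, B, C and D. Its miR-709 arrays thus lay in pairs, with A and B above C and D, and their SD of 0.29 was above that of any of the other 8 enzymes with miR-709 (0.02 to 0.17).

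**Figure D1:**
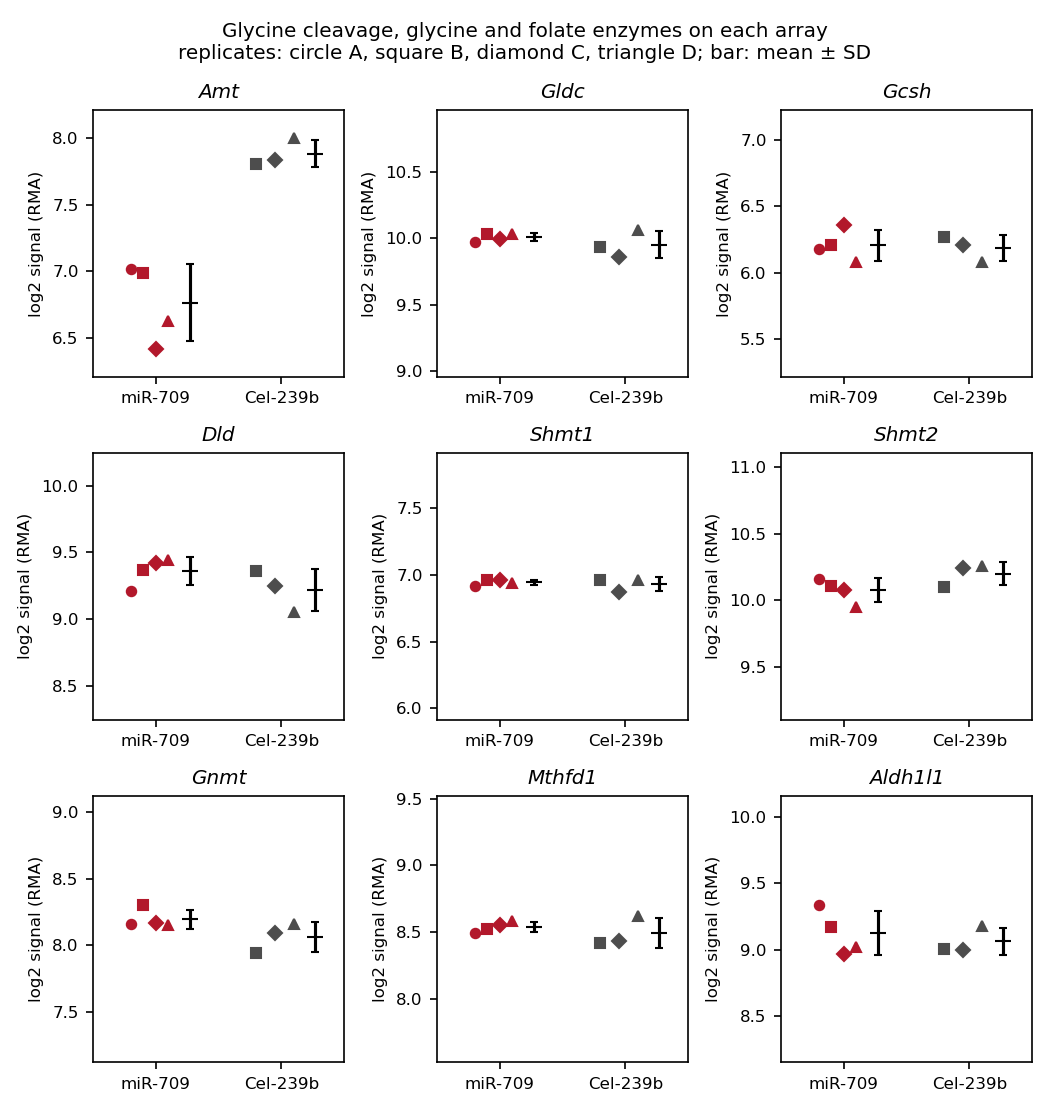
Log2 signal (RMA) of each of the 9 enzymes on the miR-709 arrays (red, n = 4) and the Cel-239b arrays (grey, n = 3), with the mean and SD as a black bar; the marker shape gives the replicate letter, and every panel spans 2 log2 units on an axis that does not start at 0. Amt is the panel in which the treatments are apart, at 6.77 ± 0.29 with miR-709 and 7.88 ± 0.10 with Cel-239b, and in the other 8 panels the arrays overlap.

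The 3 partners of Amt in the glycine cleavage system did not pass the test, and their arrays overlapped. Gldc, the decarboxylase that starts the reaction, had 9.97, 10.03, 9.99 and 10.03 on miR-709 replicates A to D, against 9.93, 9.86 and 10.06 on Cel-239b replicates B to D. All 4 miR-709 arrays of Gldc lay between the lowest and the highest Cel-239b array, and its log2 fold change was 0.06 (95% interval -0.09 to 0.20, adjusted p = 0.748). Gcsh, the lipoic acid carrier that is the direct substrate of Amt, had 6.18, 6.21, 6.36 and 6.08 with miR-709 and 6.27, 6.21 and 6.08 with Cel-239b. The lowest Gcsh value, 6.08, occurred in both treatments, and the log2 fold change was 0.02 (95% interval -0.16 to 0.20, adjusted p = 0.936). Its sign turned when single arrays were left out, at -0.03 without miR-709 replicate C and -0.03 without Cel-239b replicate D. Dld, which the glycine cleavage system shares with the pyruvate, oxoglutarate and branched-chain oxoacid dehydrogenases, had 9.21, 9.37, 9.42 and 9.44 with miR-709 and 9.36, 9.25 and 9.05 with Cel-239b. On 3 of the 4 miR-709 arrays Dld was above every Cel-239b array, while replicate A lay below 2 of them, and the log2 fold change was 0.14 (95% interval -0.06 to 0.34, adjusted p = 0.514). The fall on these arrays was therefore seen in the transferase of the system and not detected in the decarboxylase, the carrier or the dehydrogenase. The difference between Amt and its partners was not tested, since Amt was chosen for its value.

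The enzymes that make and use glycine likewise did not pass the test. Shmt1, the cytosolic serine hydroxymethyltransferase, had 6.92, 6.96, 6.96 and 6.94 on miR-709 replicates A to D, against 6.96, 6.87 and 6.96 on Cel-239b replicates B to D. Its 7 arrays spanned 0.09 log2 units, the narrowest range among the other 8 enzymes, around a log2 fold change of 0.015 (95% interval -0.11 to 0.14, adjusted p = 0.932). The sign of that value turned after cyclic loess (-0.004) and without Cel-239b replicate C (-0.015). Shmt2, the mitochondrial enzyme and a source of the glycine that the cleavage system uses, had 10.16, 10.11, 10.08 and 9.95 with miR-709 and 10.10, 10.24 and 10.26 with Cel-239b. Shmt2 was the single enzyme besides Amt with a value below 0 (log2 fold change -0.125, 95% interval -0.28 to 0.03, adjusted p = 0.458), and 2 of the 4 miR-709 arrays lay below all Cel-239b arrays. Gnmt, the glycine methyltransferase, had 8.16, 8.30, 8.17 and 8.15 with miR-709 and 7.94, 8.09 and 8.16 with Cel-239b. Replicate B of the miR-709 arrays was the highest for Gnmt and the other miR-709 arrays lay at the top of the Cel-239b range, with a log2 fold change of 0.13 (95% interval -0.03 to 0.29, adjusted p = 0.430).

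The cytosolic folate enzymes did not pass the test either, and their arrays overlapped. Mthfd1 had 8.49, 8.52, 8.55 and 8.58 on miR-709 replicates A to D, against 8.42, 8.43 and 8.62 on Cel-239b replicates B to D. All 4 miR-709 values of Mthfd1 fell inside the Cel-239b range, and the log2 fold change was 0.045 (95% interval -0.10 to 0.19, adjusted p = 0.813). Aldh1l1 had 9.34, 9.17, 8.97 and 9.02 with miR-709 and 9.01, 9.0 and 9.18 with Cel-239b. As for Amt, replicates A and B of Aldh1l1 lay above C and D among the miR-709 arrays, but here C was below and A above all Cel-239b arrays. Its log2 fold change was 0.06 (95% interval -0.15 to 0.28, adjusted p = 0.823), and it was -0.01 without miR-709 replicate A and -0.01 with the replicate letter as a block. The block sets replicate A aside, since no Cel-239b array has that letter, so both values are the same estimate.

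Of the 9 enzymes, 1 was called lower (Amt) and 0 were called higher, where 1.47% of all genes were lower and 1.81% were higher. The count rests on the choice of Amt and says nothing further about the set. Of the other 8 enzymes limma called 0, and at an unadjusted p under 0.05 it would call 0 as well. An equal-variance test of 2 groups on the deposited values, called the methods' t-test here after the kind of test that the methods name, also called 0 of the 8 after adjustment and gave 0 with p under 0.05 without it. Log2 fold changes of these 8 ran from -0.125 (Shmt2) to 0.14 (Dld) with a median of 0.05, beside a median of 0.0125 over all genes. Their 95% intervals, each taken singly, lay between -0.28 and 0.34, so the widest bound of any of them was a 1.26-fold change. A p above the threshold does not show that they were unchanged.

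**Figure D2:**
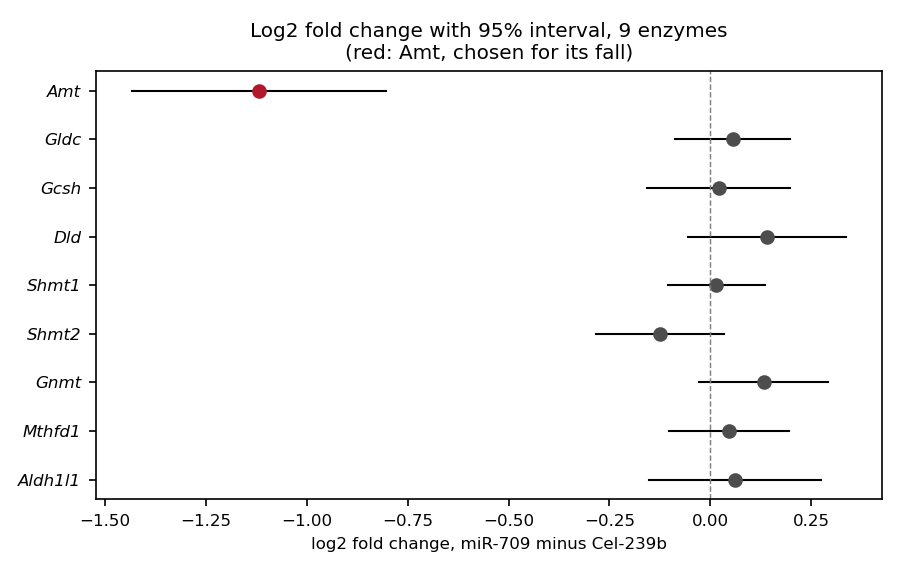
Log2 fold change (dots; miR-709 minus Cel-239b) of the 9 enzymes with the 95% interval from limma as a line, and a dashed line at 0; Amt, which was chosen for its fall, is in red. The intervals of the other 8 enzymes all include 0 and lie between -0.28 and 0.34, while Amt stands at -1.12. The interval of Amt is drawn as a description and is not a test, since Amt was chosen for this value.

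The lower level of Amt was not shared by the genes beside it on chromosome 9. In the RefSeq gene order of the GRCm38.p6 assembly, Amt lies between Nicn1 and Tcta. Nicn1, which encodes a nuclear protein, had 9.10, 9.04, 8.87 and 8.85 on miR-709 replicates A to D, against 8.51, 8.57 and 8.82 on Cel-239b replicates B to D, so that its arrays were apart in the upward direction. Its log2 fold change of 0.33 (standard error 0.09) did not pass the test (adjusted p = 0.113). For Tcta the arrays overlapped, and the value was 0.16 on the log2 scale (SE 0.07, adjusted p = 0.295).

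The genes with the pattern most like that of Amt were found among the 10969 genes whose log2 signal averaged at least 5. Each gene was centred on its Cel-239b mean, and likeness was the root mean square difference from Amt over the 7 arrays. The nearest was Ggcx, the carboxylase that activates vitamin K-dependent clotting factors, at a difference of 0.07 log2 units. Ggcx had 7.03, 7.14, 6.55 and 6.60 on miR-709 replicates A to D, against 7.97, 7.85 and 8.09 on Cel-239b replicates B to D, with A and B again above C and D. Next were Gpr155, a lysosomal membrane protein that senses cholesterol (0.10), Tstd2, a protein with a rhodanese domain (0.13), the actin gene Actc1 (0.15) and the myosin gene Myo1d (0.15). All 5 were found by their likeness in the same contrast, so their falls, from -1.04 for Gpr155 to -1.21 for Myo1d, are a description. With log2 fold changes of -0.125 to 0.14, the other 8 enzymes could not be among them under this measure.

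**Figure D3:**
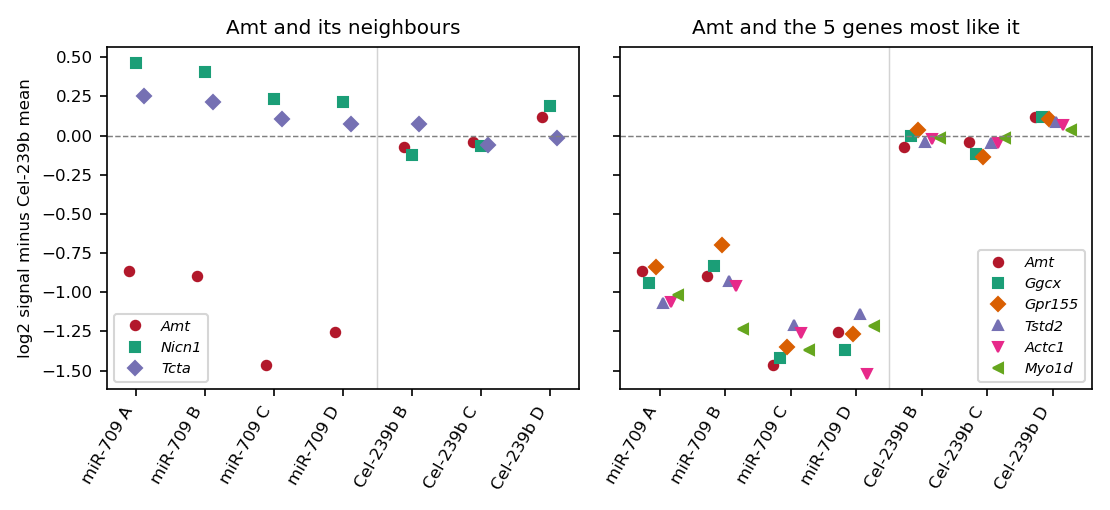
Log2 signal minus the Cel-239b mean on each array (miR-709 A to D left of the line, Cel-239b B to D right of it) for Amt with its neighbours on the chromosome (left) and for Amt with the 5 genes most like it (right). Amt is low on all 4 miR-709 arrays and lowest on C, Nicn1 and Tcta do not follow it, and Ggcx differs from it by 0.07 log2 units (root mean square).

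The 2 lowest arrays of Amt were those on which interferon response genes were high. The average of 10 measured interferon response genes stood at -0.15, -0.06, 1.07 and 1.06 from its Cel-239b level on miR-709 replicates A, B, C and D, and Amt stood at -0.86, -0.89, -1.46 and -1.25 on the same arrays. On Cel-239b replicates B, C and D the average stood at -0.17, -0.08 and 0.25, and Amt at -0.07, -0.04 and 0.12. Among the Cel-239b arrays, replicate D was thus the highest for both. The summed linear signal of the 10 genes was 3151 to 6736 on miR-709 arrays, against 2878 to 4030 on Cel-239b arrays. Limma called 0 of the 10 (2 had p under 0.05 without adjustment), and the methods' t-test called 0. With miR-709 replicates C and D left out, an alternative chosen after seeing the data, the log2 fold change of Amt was -0.88, which is again a description, and 0 of the other 8 enzymes were called. The mean of the other 8 enzymes did not follow this division, at 0.04, 0.07, 0.05 and 0.01 on miR-709 replicates A, B, C and D. Singly, Aldh1l1 and Shmt2 were lower on C and D than on A and B, while Dld and Mthfd1 were higher.

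Markers of liver cells were read on the same arrays. Of 9 measured hepatocyte markers, limma called 3 higher (Cps1, Tat and Hnf4a) and none lower, where 1.81% of all genes were higher. By limma the other 6 were not called. They had log2 fold changes of -0.18 for Apob, -0.03 for Alb, 0.01 for Ttr, 0.03 for Apoa1 and Fah and 0.26 for Tdo2. The median of the 9 was 0.03. The methods' t-test called 1 of the 9 higher after adjustment. The summed signal of the 9 was 33690 to 36160 with miR-709 and 33460 to 34350 with Cel-239b. Alb, Apoa1 and Ttr, the brightest, weigh most in that sum. Of 5 cholangiocyte markers, limma called the keratin gene Krt19 lower (1.47% of all genes were lower), the methods' t-test called 0 after adjustment (2 had p under 0.05 without it), and the sum was 469 to 783 with miR-709 and 1023 to 1172 with Cel-239b. That sum weighs the brightest marker most, which was Krt19. The other 4 were not called and their arrays overlapped. Their log2 fold changes were -0.29 for Krt7, -0.30 for Sox9, -0.08 for Cftr and 0.09 for Epcam. At an unadjusted p under 0.05, limma had 3 of the 5 lower, namely Krt19, Krt7 and Sox9. As with Amt, Krt19 was lowest on C and D (8.97, 8.73, 7.91 and 7.79 on A to D). Limma called 0 of 8 stellate cell, 0 of 7 sinusoidal endothelial and 0 of 7 Kupffer cell markers (1, 1 and 0 at an unadjusted p under 0.05), and so did the methods' t-test after adjustment. A mean log2 signal above 6 was reached by 2 of the 5 cholangiocyte, 1 of the 8 stellate, 0 of the 7 endothelial and 1 of the 7 Kupffer cell markers. The part of cell makeup or of the interferon response genes in the level of Amt was not tested, and fewer cells of a type and less RNA per cell cannot be told apart in such bulk RNA.

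Other genes of the pathway were read from 4 lists, of which 61 of 69 listed genes had a probe set of their own. Of these 61 genes, 3 were called lower (4.92%, against 1.47% of all genes) and 2 were called higher (3.28%, against 1.81%). Their median log2 fold change was 0.015, beside 0.0125 over all genes. Every miR-709 array lay below every Cel-239b array for 4 of the 61 genes (4.91% of all genes) and above for 10 (7.44% of all genes). The lists were written with results of these arrays known, and with counts this small nothing is read from the shares.

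Among 16 other folate enzymes and transporters, 2 were called lower and none higher. Aldh1l2, the mitochondrial counterpart of Aldh1l1, had 6.27, 6.18, 6.22 and 6.08 on miR-709 replicates A to D, against 6.48, 6.65 and 6.66 on Cel-239b replicates B to D. It fell by 0.41 on the log2 scale (standard error 0.07, adjusted p = 0.0133), with arrays apart. The call was lost without Cel-239b replicate C (adjusted p = 0.0748), without Cel-239b replicate D (0.0538) and without miR-709 replicates C and D together (0.138). Mthfd1l, which makes formate from formyl-tetrahydrofolate in mitochondria, fell by 0.29 (standard error 0.07, adjusted p = 0.0458), with 8.57, 8.55, 8.62 and 8.67 with miR-709 and 8.78, 8.97 and 8.94 with Cel-239b. Mthfd1l kept its call without Cel-239b replicate B and lost it when miR-709 replicate A, B, C or D or Cel-239b replicate C or D was left out (adjusted p = 0.0792 to 0.174), and without miR-709 C and D together (0.159). Other mitochondrial members of that list, named after their values were seen, did not pass the test, and their log2 fold changes were -0.18 for Mthfd2, 0.015 for Mthfd2l, 0.07 for Mtfmt and 0.11 for Slc25a32. The arrays of Mthfd2 were apart in the downward direction (adjusted p = 0.144 by limma), and those of Mthfd2l, Mtfmt and Slc25a32 overlapped. Whether Mthfd1 (0.045) and Aldh1l1 (0.06) differed in response from Mthfd1l and Aldh1l2 was not tested.

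**Figure D4:**
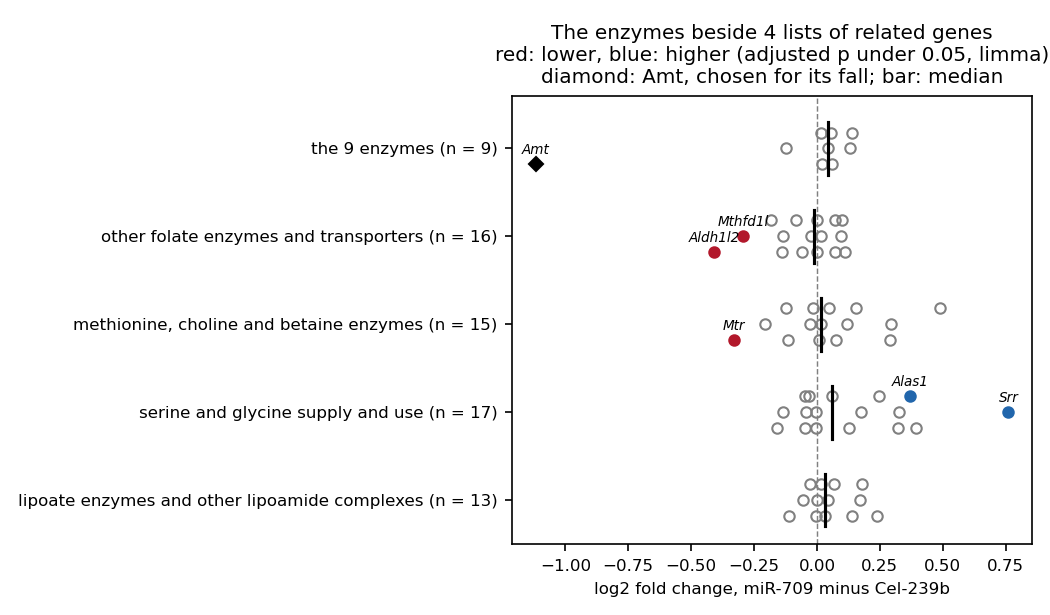
Log2 fold change (miR-709 minus Cel-239b) of each measured gene of the 9 enzymes and of 4 lists of related genes; filled circles have an adjusted p under 0.05 by limma (red for lower, blue for higher), the diamond is Amt, and the black bar is the median of the row. Amt at -1.12 is the lowest point, and Srr at 0.76 the highest; the height of a point within its row has no meaning.

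Mtr, methionine synthase, which takes its methyl group from folate, was the single called gene of 15 methionine, choline and betaine enzymes. It had 6.77, 6.67, 6.55 and 6.63 on miR-709 replicates A to D, against 6.99, 6.93 and 7.04 on Cel-239b replicates B to D, and fell by 0.33 on the log2 scale (standard error 0.07, adjusted p = 0.0282). Its call was lost without miR-709 replicate B, C or D and without Cel-239b replicate B, C or D (adjusted p = 0.0704 to 0.0938), as well as without miR-709 C and D together (0.20). Of 17 genes of serine and glycine supply and use, 2 were called higher and none lower. Srr, serine racemase, had 7.07, 7.2, 7.25 and 7.27 with miR-709 and 6.39, 6.48 and 6.44 with Cel-239b, so that its arrays were widely apart. It was 1.69-fold higher, or 0.76 on the log2 scale (standard error 0.07, adjusted p = 3.4e-04). It was called under all 20 alternatives (adjusted p = 8.0e-05 to 0.0199). Alas1, which condenses glycine with succinyl-CoA in the first step of heme synthesis, rose by 0.37 (standard error 0.08, adjusted p = 0.0310). Its signals were 10.90, 10.84, 11.04 and 11.11 with miR-709 and 10.55, 10.60 and 10.66 with Cel-239b. The call of Alas1 was lost without miR-709 replicate A, C or D and without Cel-239b replicate B, C or D (adjusted p = 0.0593 to 0.124), and also without miR-709 replicates C and D together (0.176). Of 13 genes of lipoate attachment and of the other complexes that use a lipoamide arm, limma called 0 (3 had p under 0.05 without adjustment), as did the methods' t-test. The lowest p of that list was that of Lias, lipoic acid synthase, which makes the arm that Gcsh carries (log2 fold change 0.24, standard error 0.06, adjusted p = 0.0959). Srr and Alas1 use serine or glycine, and Phgdh, Psat1 and Psph, which make serine from a glycolysis intermediate, did not pass the test. Of the 5 called genes of the lists, Srr alone kept its call with the methods' t-test.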

How the data were processed

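Total RNA of transfected mouse hepatocytes was measured on Affymetrix Mouse Gene 1.0 ST arrays, 1 array per replicate. The authors deposited 1 log2 signal for each probe set and array, made in Partek with RMA (versions not given in the sources used here). Raw scans were not used here. Of 28853 probe sets, 21789 had 1 gene symbol, 1621 had several and 5443 had none; several probe sets of a gene (999 genes) were reduced to the brightest, which left 19938 genes. Arrays had medians of 5.04 to 5.07 and correlated at 0.995 to 0.998. No pair of arrays was identical (0 pairs).

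Groups came from the sample titles. Treatments were compared with limma 3.58.1 in R 4.3.3 (2-sided, Benjamini-Hochberg over all genes; median standard error 0.08), which was checked on simulated data. Members and lists were chosen with earlier results of these arrays known. Named were the 9 enzymes, called list genes (or the lowest p), the neighbours of Amt and the 5 genes most like it. Alternatives varied the model (limma-trend, array weights, a block for the replicate letter, the methods' t-test), the genes entered (every probe set, averaged probe sets, filters at a mean of 5 or 6), the scaling (median centring, cyclic loess, quantile) and the arrays (each left out, and miR-709 C and D together, which was chosen after seeing the data). Sequences of miR-709 and of the Amt mRNA were not analysed here.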

Additional observations from a re-analysis of the deposited data

Results flagged for a closer look

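For Gnmt, the glycine methyltransferase, miR-709 replicate B stood apart from the other miR-709 arrays, at 8.30 against 8.15 to 8.17. The gap was 0.867 of the range of the 4 arrays, above Dixon's critical value for 4 samples. Chance flags about 1 in 20 such groups, and 9 were examined. Without that replicate the log2 fold change of Gnmt was 0.10, against 0.13 with it, and neither passed the test.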

How the results depend on the processing

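Amt was lower under all 20 alternatives (log2 fold change -1.2 to -0.88). Since Amt was chosen for its fall, its call is not evidence of stability; it was the 1 enzyme called lower, and the methods' t-test called 0 of the 9 after adjustment. None of the other 8 enzymes was called under any alternative. Signs of small values turned for Gcsh (-0.033 to 0.063 with 1 array left out, below 0 without miR-709 replicate C or Cel-239b replicate D), Shmt1 (-0.015 to 0.03, below 0 without Cel-239b replicate C, and -0.004 with cyclic loess) and Aldh1l1 (-0.01 to 0.12, below 0 without miR-709 replicate A, and -0.01 with the replicate block). For each gene, the replicate block gives the same estimate as leaving out miR-709 replicate A, since no Cel-239b array has that letter. Of the 61 related genes, 3 were lower and 2 higher. The methods' t-test called 0 lower and 1 higher (4 and 3 at an unadjusted p under 0.01), and the replicate block called 0 lower and 2 higher (Srr and Slc6a9). Under the block Aldh1l2 (adjusted p = 0.0543), Mthfd1l (0.129), Mtr (0.0569) and Alas1 (0.0565) lost their calls. Filters at a mean log2 signal of 5 and 6, which left out dim genes, called 4 and 5 higher. Leaving out 1 array gave 0 to 2 lower and 1 to 3 higher, and without miR-709 C and D together 0 were lower and 1 was higher. Deviations of arrays with the same letter correlated at 0.017 to 0.046, within the -0.059 to 0.078 of arrays with different letters, so the letters were not taken as pairs. With the letter as a block, 221 genes were lower and 180 higher over all genes, against 293 and 361 without it.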

Other observations

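Some enzymes of the betaine route, a folate-independent way to methylate homocysteine, were named after their values were seen. Bhmt, betaine-homocysteine methyltransferase, had 9.74, 9.87, 9.49 and 9.59 on miR-709 replicates A to D, against 9.13, 9.01 and 9.41 on Cel-239b replicates B to D. Its arrays were apart, and the log2 fold change of 0.49 (standard error 0.11) did not pass the test (adjusted p = 0.0550). When dim genes were left out, it did pass, at adjusted p = 0.0268 with a minimum mean of 5 and 0.0205 with a minimum of 6. Bhmt also passed with limma-trend (adjusted p = 0.0443) and without Cel-239b replicate D (0.0334), and under no other alternative. Bhmt2 (0.30, adjusted p = 0.154) and the choline dehydrogenase gene Chdh (0.29, adjusted p = 0.159) were also apart in the upward direction and did not pass. Of the same list, the arrays of Aldh7a1 (0.15, adjusted p = 0.306), Dmgdh (-0.03, adjusted p = 0.859) and Sardh (0.02, adjusted p = 0.939) overlapped, so a rise was not seen across the list. Gss, glutathione synthetase, which adds glycine to make glutathione, had a log2 fold change of 0.32 (adjusted p = 0.0872), and it passed under the same minimums (adjusted p = 0.0464 and 0.0353).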
